A study of Mus musculus with 2 samples.

Results

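The genes of fatty acid oxidation and ketone body metabolism were examined in mouse distal colon, in a wild-type pool and in a pool from mice carrying a transgene of interleukin-9 (IL-9), which is a type 2 cytokine. The set was a list of 34 genes, chosen by symbol and not by measured values, though with earlier results of these data known. The array annotation names 12393 genes from probe sets with a single symbol. Of the 34, 32 had such a probe set, 53 probe sets in all; the expression of Acsl1 and Acsl3 was not analysed here. A probe set is a group of short oligonucleotides on an Affymetrix array that together read 1 transcript.

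RNA from a piece of distal colon was pooled from 4 mice per genotype and hybridised to 1 array per pool. The control pool came from wild-type FVB mice, an inbred strain (the series text spells it TVB, the sample labels FVB). The other pool came from IL-9 transgenic mice, labelled Tg5. Both were bred under specific pathogen-free conditions. The strain background of the transgenic mice, the promoter and cell type that drive the transgene, and the age and sex of the mice are not given in the sources used here. With 1 array per genotype no test was possible, and every difference below lacks a replicate check.

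Fatty acid oxidation removes pairs of carbons from an activated fatty acid (an acyl-CoA) in a repeated spiral of dehydrogenation, hydration, a further dehydrogenation and thiolysis. Mitochondria take long chains through the carnitine shuttle and pass the electrons to the respiratory chain, whereas peroxisomes shorten very long and branched chains and form hydrogen peroxide in the initial step. The colonic epithelium uses short-chain fatty acids from bacterial fermentation, chiefly butyrate, as its main fuel, and oxidises them in the same mitochondrial spiral. Many genes of both pathways are targets of the nuclear receptor PPARα and the coactivator PGC-1α.

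Almost all of these genes read alike in the 2 pools. A gene counted as measured where its brightest probe set exceeded an intensity floor of 19.8, the 40th percentile of all values, on at least 1 array, and 30 members did so, 29 of them on both arrays. Acaa1b and Acot2 exceeded the floor on neither array, and Acox3 exceeded it in the transgenic pool alone. At 2-fold or more, 0 members were higher and 1, Acaa1a, was lower in the transgenic pool, against 0.767% of all 8346 measured genes higher and 0.611% lower (1.38% in either direction). At 1.5-fold the counts of members were again 0 and 1, against 4.09% higher and 2.85% lower among all genes (6.94% in either direction). The log2 ratio of the transgenic over the wild-type intensity had a median of 0.0083 over the members and 0.04 over all measured genes.

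As a technical yardstick, log2 ratios differed between probe sets of the same gene by a pooled SD of 0.28, taken over 2847 genes read more than once above the floor in each pool. This yardstick holds no spread between animals or arrays. Of the 29 members above the floor in each pool, 23 (79.3%) lay within 0.28 of a log2 ratio of 0, against 69.8% of the 7770 genes so measured. Members with log2 ratios further from 0 were Cpt2 and Bdh1 on the higher side, and Acaa1a, Crat, Acadm and Cd36 on the lower side. The shares within 0.28 were not matched for intensity, and 22 of the 30 measured members had a mean intensity of at least 100. Over all 8346 measured genes, 3986 were that bright. Among genes that bright, 1 of 22 members was past 1.5-fold, against 4.11% of the 3986. The summed intensity of the 53 probe sets was 0.445% of all probe set intensity in wild type and 0.451% in the transgenic pool.

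**Figure D1:**
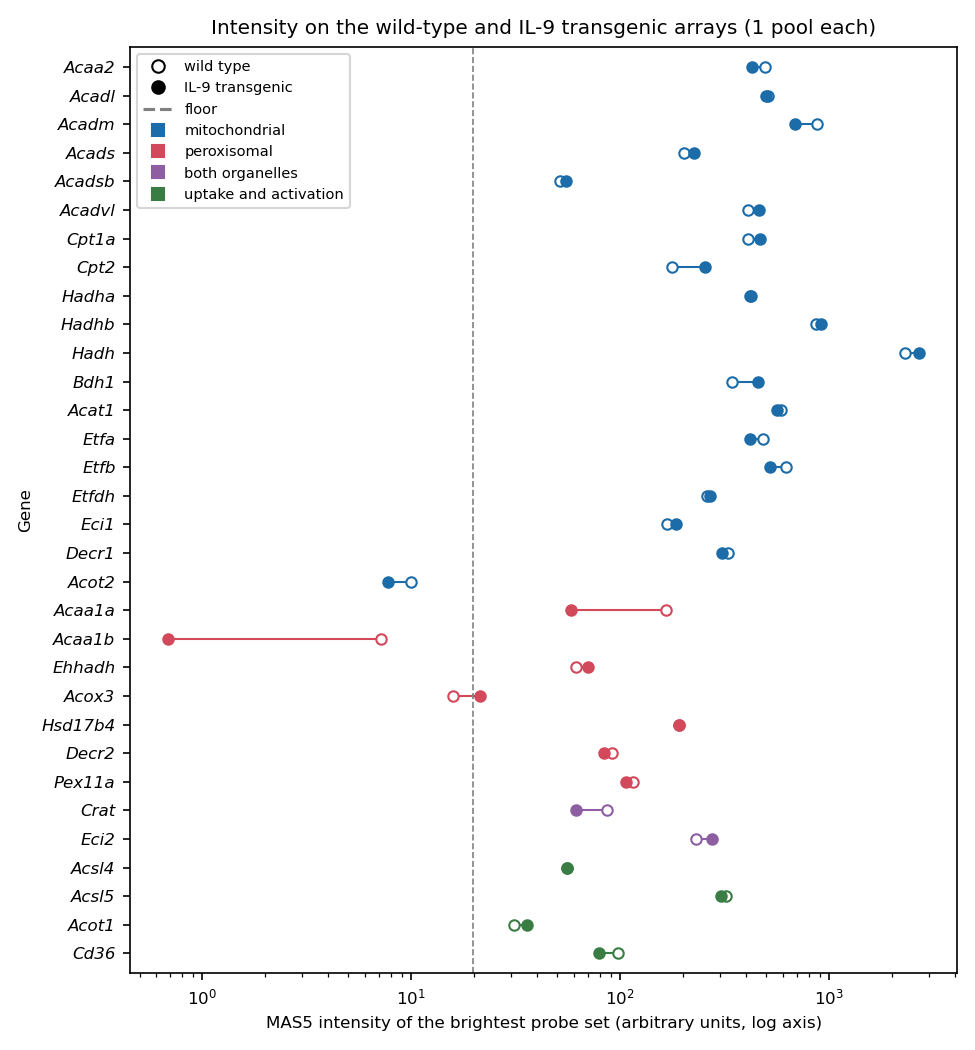
MAS5 intensity (arbitrary units, log axis) of the brightest probe set of each of 32 genes in the wild-type pool (open circles) and the IL-9 transgenic pool (filled circles), coloured by compartment, with the floor of 19.8 as a dashed line. Most pairs of circles nearly coincide; Acaa1a moves from 166 to 58.2, and Acaa1b, Acot2 and the wild-type value of Acox3 lie below the floor.

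Il9, the transgene, had an intensity under the floor in wild type (5.14) and of 862 in the transgenic pool, as the labels say. The tissue and its cell makeup were read from marker genes, by the brightest probe set of each. All 11 epithelial markers were measured, with summed intensities of 20474 in the wild-type and 20538 in the transgenic pool, and all 9 markers of absorptive colonocytes, with sums of 17558 and 17123. Acinar cells of the exocrine pancreas had 12 of 12 markers lower by 2-fold or more in transgenic colon, with sums of 30217 and 1677, and 9 of them were at the floor there. All probe sets of these acinar genes held 1.45% of probe set intensity in the wild-type pool and 0.0609% in the transgenic pool. The source of this pancreatic signal in the wild-type colon pool was not tested. B cell markers (5 measured, 4 at least 2-fold higher, sums 184 and 864) and mast cell markers (6 measured, 4 at least 2-fold higher, sums 184 and 3251) were higher. The part of these cell types in the values of the oxidation genes was not tested. In whole tissue, fewer cells of a type and less RNA per cell cannot be told apart.

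Sequence upstream of the annotated starts was available for 29 of the 34 genes in RefSeq (GRCm38.p6), as 31 windows of 250 bases before the start. The direct repeat bound by PPAR with its partner RXR, AGGTCANAGGTCA, was present in 0 of the 31 windows and in 0.0335% of all 32851 windows of the same length, reading both strands. Only this exact form was searched, and it is so rare that 0 of 31 says nothing particular about these genes. Its single hexamer, AGGTCA, which other nuclear receptors share, was in 4 windows (12.9%), against 14.0% of all windows. These 4, the windows of Acadm, Acadvl, Cpt1a and Cd36, are shown because the hexamer is the repeated unit of the form searched. The hexamer, or its complement on the other strand, is in capitals.
Acadm, chr3:153944862-153944893, minus strand, 250 to 219 bases before the start: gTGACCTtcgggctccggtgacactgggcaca
Acadvl, chr11:70015485-70015540, minus strand, 112 to 57 bases before the start: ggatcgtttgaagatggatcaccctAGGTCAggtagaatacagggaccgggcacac
Cpt1a, chr19:3323182-3323237, plus strand, 119 to 64 bases before the start: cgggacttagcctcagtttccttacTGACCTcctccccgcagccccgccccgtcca
Cd36, chr5:17836094-17836146, minus strand, 250 to 198 bases before the start: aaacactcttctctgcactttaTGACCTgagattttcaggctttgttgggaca

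Core promoter letters were searched in the same windows. The GC box GGGCGG, on either strand, was in 19 of 31 windows (61.3%, against 32.7% of all windows), CCAAT in 15 (48.4%, against 33.8%) and TATAAA in 0 (against 12.4%). The windows of Hadha and Hadhb overlap, and the same GC box is counted in both, so these windows are not independent. The element TCAAGGTCA, named for the estrogen-related receptors that work with PGC-1α, was in 0 windows, against 0.387% of all. It too was searched in this exact form only and is too rare for the 0 to be informative. A match is a description of these letters, and sequence outside the windows was not read.

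The carnitine shuttle carries long chains into mitochondria. Cpt2, the inner membrane transferase that re-forms the acyl-CoA, read 178 in wild type and 254 in the transgenic pool. Its log2 ratio of 0.51 was the highest of the members and stood at percentile 94.3 of all measured genes; its second probe set was below the floor, at 15.5 and 6.36. Cpt1a, the outer membrane transferase that sets the rate of entry, read 408 and 464 by its brightest probe set, a log2 ratio of 0.19. Its other probe sets went the other way, from 35.2 to 28.2 (−0.32) and from 39.9 to 32.9 (−0.28), so that the sign for Cpt1a depended on the probe set. The AGGTCA-bearing window of Cpt1a shown above thus belongs to a gene whose probe sets differ in sign.

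Acyl-CoA dehydrogenases open each turn of the mitochondrial spiral and differ in the chain length they accept. Acadvl, for very long chains, read 407 and 461 (log2 ratio 0.18). Acadl, for long chains, read 508 and 499 (−0.025), and its second probe set exceeded the floor in neither pool. Acadm, for medium chains, read 879 in the wild-type and 690 in the transgenic pool, a log2 ratio of −0.35 at percentile 9.47, the lowest of the mitochondrial members. Acads, which acts on butyrate, read 202 and 225 (0.16), and Acadsb, which works in isoleucine breakdown, read 51.6 and 54.7 (0.09). Of the 5 genes, only Acadm lay outside the pooled SD of 0.28. Acadm has a single probe set, so no other reading of it was at hand.

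The electrons of these dehydrogenases pass to the electron transfer flavoprotein and its dehydrogenase. Its subunit genes Etfa and Etfb read lower in the transgenic pool, at 481 and 420 (−0.19) and at 624 and 519 (−0.27). Etfdh, which hands the electrons to ubiquinone, read 261 and 269 (0.04). All 3 were within the pooled SD.

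The mitochondrial trifunctional protein, which carries out the later steps for long chains, is made from Hadha and Hadhb. Hadha read 417 and 421 (log2 ratio 0.015), and Hadhb 868 and 917 (0.08) by its brightest probe set and 486 and 453 (−0.10) by the other. The genes lie head to head on chromosome 5, with 272 bases between their annotated starts. This stretch is printed because it is the upstream sequence of both genes, in the strand of Hadhb, with its 2 GC boxes in capitals.
Hadha and Hadhb, chr5:30154981-30155252, plus strand: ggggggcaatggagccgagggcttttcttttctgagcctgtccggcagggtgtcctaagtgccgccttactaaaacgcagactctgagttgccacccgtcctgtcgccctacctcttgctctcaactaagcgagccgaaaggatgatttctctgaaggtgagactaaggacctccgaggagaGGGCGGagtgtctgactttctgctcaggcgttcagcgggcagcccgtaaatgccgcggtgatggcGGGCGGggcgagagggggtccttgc
Both genes of the pair were within 0.1 of a log2 ratio of 0 by all 3 of their probe sets, a difference smaller than the yardstick.

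Hadh, the dehydrogenase for short and medium chains, read 2297 and 2706 (log2 ratio 0.24) by its brightest probe set and 908 and 912 (0.0069) by another. Its remaining probe set was above the floor in wild type (41.1) and below it in transgenic colon (16.4), at least 2.08-fold lower against the floor. Acaa2, the mitochondrial thiolase that closes the spiral, read 492 and 427 (−0.20), 231 and 208 (−0.15), and 366 and 449 (0.29) by its 3 probe sets. The auxiliary enzymes of unsaturated chains, the isomerase gene Eci1 and the reductase gene Decr1, read 167 and 184 (0.14) and 328 and 306 (−0.10), with Decr1 at 48.2 and 49.7 (0.04) by its other probe set. Counting the bound of Hadh, the spread between probe sets of these genes was larger than the difference between pools, apart from Eci1, which has a single probe set.

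Ketone bodies are made from the acetyl-CoA that oxidation yields, and are burned again outside the liver. Bdh1, which interconverts acetoacetate and hydroxybutyrate, read 343 in the wild-type and 459 in the transgenic pool, a log2 ratio of 0.42 at percentile 90.8. Its other probe set read 57.9 and 51.5 (−0.17), so the direction for Bdh1 was not the same in both. Acat1, the acetoacetyl-CoA thiolase, read 586 and 563 (−0.06), 574 and 567 (−0.02), and 91.6 and 75.4 (−0.28).

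Among further ketone body genes, 3 of 5 on the array were measured and 0 reached 1.5-fold by their brightest probe sets. Oxct1, the transferase that starts ketone use, read 756 and 706 (−0.10) and 411 and 404 (−0.02) by its 2 brighter probe sets. Its 2 dimmer ones read 372 and 197 (−0.92) and 148 and 65.3 (−1.18), so all 4 were negative while their sizes differed. Slc16a1, the transporter MCT1 that moves butyrate and ketone bodies, read 1113 and 875 (−0.35), and Aacs, which returns acetoacetate to lipid synthesis, 67.6 and 77.3 (0.19).

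**Figure D2:**
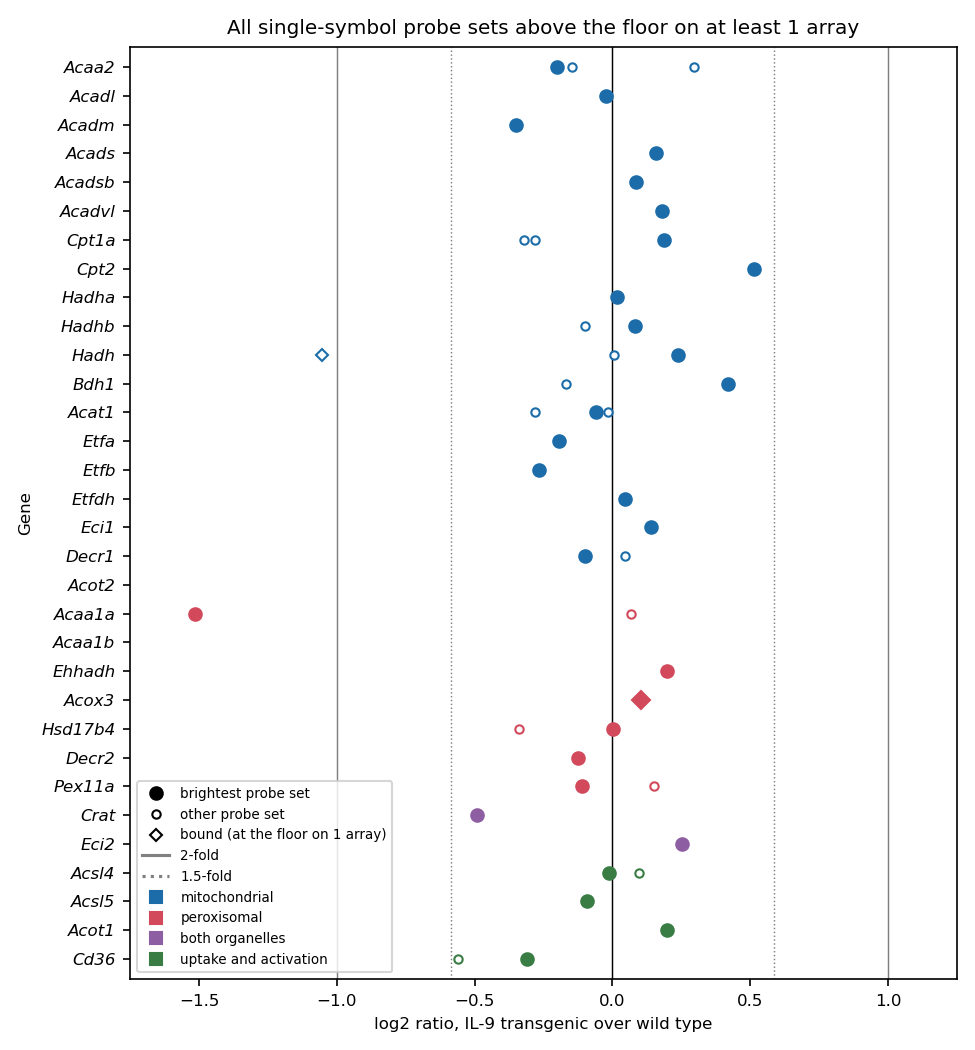
Log2 ratio of IL-9 transgenic over wild type for the 46 single-symbol probe sets that exceeded the floor in at least 1 pool, by gene and compartment; filled symbols are the brightest probe set of a gene, open symbols its others, diamonds ratios that are bounds, and grey lines mark 1.5-fold and 2-fold. Nearly all symbols lie between the 1.5-fold lines; 1 probe set of Acaa1a and 1 of Hadh lie past the 2-fold line on the lower side.

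By probe set, 46 of the 53 were above the floor on at least 1 array, and 2 were past 2-fold, both lower, against 1.45% of the 13070 measured probe sets in either direction. Those 2 were also the only ones past 1.5-fold, against 7.60% of all. In 12 members more than 1 probe set exceeded the floor in each pool, and in 9 of the 12 they differed in sign. The same share over all 2847 genes with several such probe sets was not computed. Whether the members differ from other genes in this is therefore not known.

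Peroxisomal genes centred near 0 as well, with a median log2 ratio of −0.05 over 6 measured members, against 0.06 over 18 mitochondrial ones; the difference between these medians has no test and is smaller than the pooled SD for a single gene. Acaa1a, the peroxisomal 3-ketoacyl-CoA thiolase, was the sole member past 2-fold. Its brightest probe set read 166 in the wild-type and 58.2 in the transgenic pool, 2.86-fold lower and at percentile 0.258 of all measured genes. Its other probe set read 24.6 and 25.8, a log2 ratio of 0.07. A gap between probe sets as large as this one, 1.58 on the log2 scale, was found in 0.351% of the 2847 genes with several.

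Acaa1b is the close paralogue of Acaa1a, and its own probe set stayed under the floor, at 7.18 in wild type and 0.682 in the transgenic pool. A further 2 probe sets are annotated to both genes together and were not used for either; they read 117 and 102 (−0.20) and 144 and 157 (0.12). Thus 1 of the 4 probe sets for Acaa1a, or for Acaa1a and Acaa1b jointly, was lower past 1.5-fold, and the other 3 lay within 0.21 of 0. Both of the probe sets annotated to Acaa1a alone carry the suffix that marks probes able to bind other transcripts. The upstream sequences of the paralogues are printed to set the 2 genes side by side. They lie before the annotated starts, outside the transcripts, so they do not show which gene a probe set reads. The complement of CCAAT is in capitals.
Acaa1a, chr9:119341174-119341293, plus strand, 120 bases before the start: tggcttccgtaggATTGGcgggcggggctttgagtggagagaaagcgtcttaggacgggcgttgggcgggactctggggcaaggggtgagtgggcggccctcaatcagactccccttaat
Acaa1b, chr9:119157094-119157213, minus strand, 120 bases before the start: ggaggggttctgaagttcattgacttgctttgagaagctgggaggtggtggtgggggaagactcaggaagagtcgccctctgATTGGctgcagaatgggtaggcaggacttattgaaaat
Acaa1a had 3 GC boxes within 101 bases of its start, whereas Acaa1b had 0 in its window of 250 bases.

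**Figure D3:**
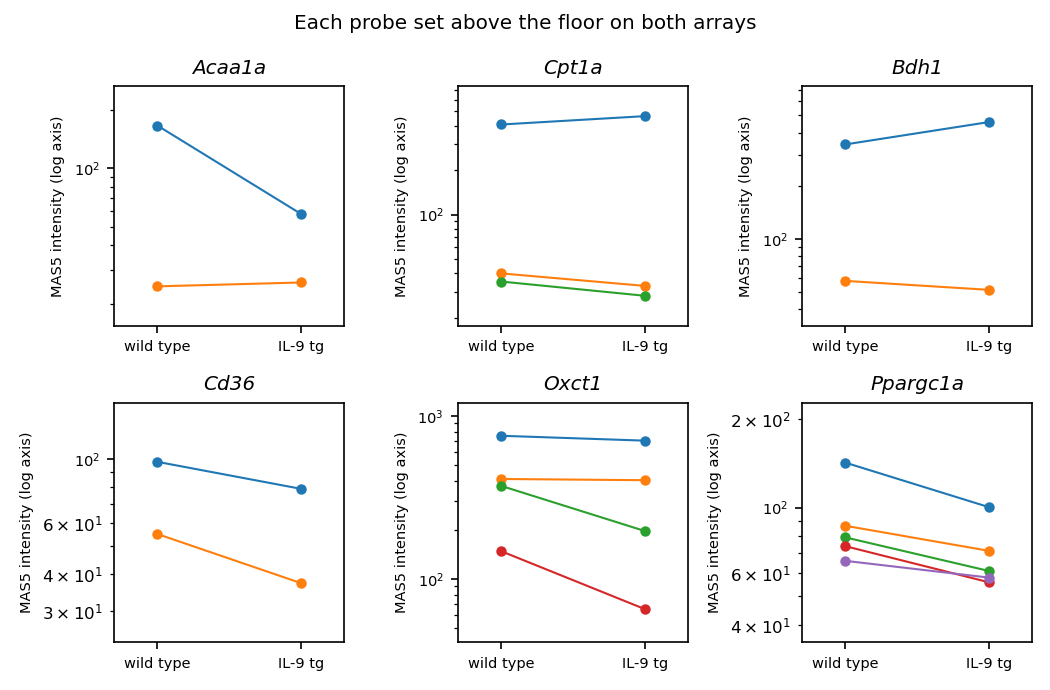
MAS5 intensity (log axis) on the wild-type and IL-9 transgenic arrays, a line for each probe set that exceeded the floor in each pool, for 6 genes. The probe sets of Acaa1a, Cpt1a and Bdh1 run in different directions, those of Cd36 and Ppargc1a all run downward, and those of Oxct1 run downward at unequal slopes.

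By their brightest probe sets, the other measured peroxisomal members lay within the pooled SD of 0.28, with Acox3 as a bound near the floor. A second probe set of Hsd17b4 lay outside it, at −0.34. Ehhadh, the bifunctional enzyme of the PPARα-induced spiral, read 61.4 and 70.5 (0.20). Hsd17b4, the bifunctional enzyme for very long and branched chains, read 191 and 191 (0.0020), and its second probe set 211 and 167 (−0.34). Acox3, an oxidase for branched chains, read 15.8 and 21.3, at least 1.08-fold higher against the floor; the plain ratio of these low values is 0.43 on the log2 scale. Decr2, the peroxisomal dienoyl-CoA reductase, read 91.6 and 83.9 (−0.13). Pex11a, a membrane protein of peroxisome division and a PPARα target, read 115 and 107 (−0.11), and 41.9 and 46.5 (0.15) by its other probe set.

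The genes whose products are found in both organelles went opposite ways. Crat, which makes acetyl-carnitine for export of acetyl units, read 86.0 and 61.2, a log2 ratio of −0.49 at percentile 4.52, with its second probe set below the floor at 10.7 and 12.0. Eci2, an isomerase for unsaturated chains, read 231 and 275 (0.25).

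Uptake and activation precede oxidation. Cd36, a fatty acid receptor of adipocytes, capillary endothelium and macrophages, read 97.6 and 78.8 (−0.31) and 55.1 and 37.3 (−0.56), with its remaining, dimmer probe set below the floor. Cd36 was thus lower in the transgenic pool by both probe sets above the floor, under 1.5-fold in each. Beside it, 5 of 7 adipocyte markers on the array were measured, 4 of them negative, with a median log2 ratio of −0.20 and summed intensities of 1249 and 1009; the adipokine gene Lep and the lipid droplet gene Cidec exceeded the floor in neither pool. Endothelial markers had a median of 0.32 (6 measured), with Vwf and Plvap each 2.01-fold higher. Pecam1 had a log2 ratio of 0.50, Kdr and Tek 0.13 each and Emcn −0.02, while Cdh5 exceeded the floor in neither pool. Macrophage markers had a median of 0.07 (6 measured). The part of fat tissue, vessels or macrophages in the Cd36 value was not tested.

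The acyl-CoA synthetases that activate long chains were close to 0. Acsl5, of the intestinal epithelium, read 323 and 303 (−0.09), and Acsl4, which prefers arachidonate, 55.8 and 55.3 (−0.012) and 20.8 and 22.3 (0.10). Acot1, a cytosolic thioesterase induced by PPARα, read 31.2 and 35.7 (0.20). Its mitochondrial paralogue Acot2 was below the floor, at 9.96 and 7.69, and a probe set annotated to both thioesterases read 45.1 and 37.5 (−0.27).

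Genes of the same pathways outside the list gave a like picture. Of 18 other genes of mitochondrial oxidation, 0 were past 2-fold and 1 was past 1.5-fold, with a median of 0.04. Acad9, a dehydrogenase and complex I assembly factor, read 58.8 and 37.1, 1.59-fold lower, with its other probe set at −0.17. Mmut, the methylmalonyl-CoA mutase of odd-chain breakdown, had a log2 ratio of −0.55 and −0.32 by its other probe set. Acad10 had 0.39, and the epimerase gene Mcee 0.23.

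Of 12 other genes of peroxisomal oxidation, 0 reached 1.5-fold, and the median was 0.02. The racemase gene Amacr had a log2 ratio of −0.51, the lyase gene Hacl1 0.48, catalase (Cat), which removes the hydrogen peroxide of the organelle, −0.37 and −0.30 by its probe sets, and the diphosphatase gene Nudt19 0.20. Peroxins, which build the organelle, were positive in 9 of 10 measured genes (56.0% of all measured genes were positive), with a median of 0.13 and 0 past 1.5-fold. Pex14, a docking protein for imported enzymes, had the highest of these at 0.57, followed by the import receptor gene Pex5 at 0.44 (−0.12 by its other probe set), the membrane chaperone gene Pex19 at 0.34 and Pex16 at 0.20.

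Among 7 further genes of uptake and activation, 1 was past 1.5-fold, the transporter gene Slc27a1, at 21.1 and 33.5, the former near the floor. The binding protein genes Fabp2 and Fabp4 had log2 ratios of 0.41 and −0.18, with Fabp4 at −0.87 by its other probe set, and Dbi, the acyl-CoA binding protein, had −0.21 with its 3 others from 0.06 to 0.40.

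Regulators of the pathway and PPAR targets were read as a further list. Of 14 measured, 1 was past 2-fold, with a median of −0.0065. Pdk4, the kinase that turns pyruvate dehydrogenase off when fatty acids are burned, read 80.5 in the wild-type and 39.3 in the transgenic pool, 2.05-fold lower by its single probe set. Ppargc1a, which encodes PGC-1α, read lower by all 5 of its probe sets, from 142 to 100.3 (−0.50) by the brightest and by log2 ratios from −0.41 to −0.19 by the others. The 5 readings share 1 RNA pool per genotype, so they speak to the array value and not to the spread between mice.

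The measured PPAR genes were not lower beyond the yardstick. Ppara, the receptor for fatty acids, read 35.1 and 35.0 (−0.0033). Pparg, the isoform of colonocytes and fat, read 62.0 and 92.2, a log2 ratio of 0.57. Ppard was below the floor in each pool. The deacetylase gene Sirt1 had −0.39.

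**Figure D4:**
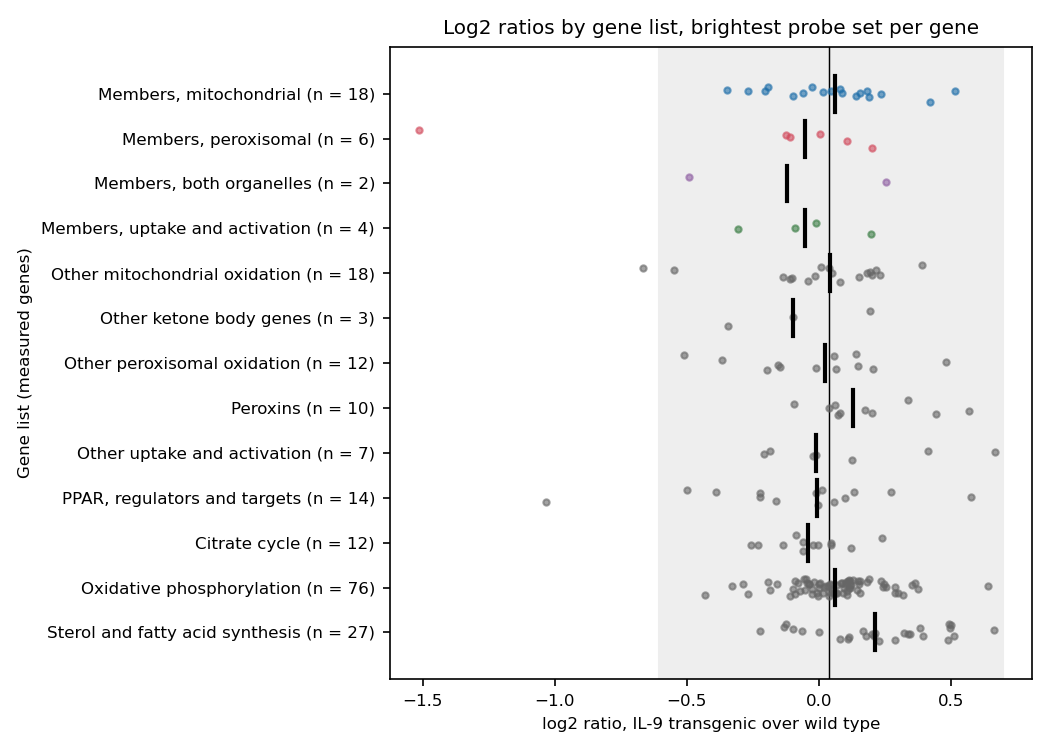
Log2 ratio of IL-9 transgenic over wild type for each measured gene (points; brightest probe set) in the 4 compartments of the oxidation genes (coloured) and in 9 related lists (grey), with list medians as thick black bars, the median of all measured genes (0.04) as a thin line and their middle 95% (−0.61 to 0.70) shaded. Acaa1a at −1.51, Pdk4 at −1.03 and Acad9 at −0.66 fall outside the shading, and the synthesis list sits to the right of the others with a median of 0.21.

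The oxidation genes were set beside the pathways most like them, with no test of the difference, since each genotype has 1 array. Subunits of oxidative phosphorylation, which take up the electrons of oxidation, had a median of 0.06 over 76 measured genes, with 0 past 2-fold and 1 past 1.5-fold, Ndufb1, at 32.1 and 50.1. Next in size were Ndufb6 at −0.43, Cox6b2 at 0.38 and Uqcrq at 0.36. Enzymes of the citrate cycle had a median of −0.04 over 12 genes, with 0 past 1.5-fold and the furthest, Dld, at −0.26, followed by Ogdh at 0.24, Fh1 at −0.23 and Cs at −0.14. Fatty acid synthesis was taken with sterol synthesis as 1 list. There 21 of 27 measured genes were positive, the median was 0.21, and 1 was past 1.5-fold, the mevalonate kinase gene Mvk, at 30.6 and 48.5. Mvd (0.51, and −0.11 by its other probe set), Srebf2 (0.50 and 0.10), the regulator of sterol synthesis, and Fdps (0.49) followed. Among the oxidation genes 16 of 30 (53.3%) were positive, near the 56.0% of all measured genes. Across genes, the SD of log2 ratios was 0.36 over the 30 measured members, 0.23 over 18 mitochondrial and 0.64 over 6 peroxisomal ones. The peroxisomal value includes Acaa1a. The SD was 0.17 over oxidative phosphorylation, 0.23 over synthesis and 0.45 over all measured genes.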

How the data were processed

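Distal colon RNA of a wild-type and an IL-9 transgenic pool was measured on 1 Affymetrix array each. The deposited value table gives 1 linear intensity per probe set and array, made by the authors with MAS5, per the submitters' processing notes, which name no version. Because MAS5 takes off background and mismatch signal, ratios between low values are unstable. Detection calls were not used here.

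Of 22690 probe sets, 64 were controls; of the rest, the platform annotation gave 20380 a single symbol, 691 several and 1555 none. Genes were named only from single-symbol probe sets, and the brightest (mean of both arrays) stood for its gene. Values under the floor of 19.8 (40th percentile) were set to it before the log2 ratio was taken, with no further scaling. A ratio with 1 array at the floor is a bound. No test, p-value or standard error was possible, and having 2 arrays limits all precision. The procedure was tested on simulated data with planted changes larger than 2-fold, alike in every probe set of a gene. That test does not cover differences as small, or probe sets as discordant, as those of the members.

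All members with a probe set were named, as were, in each further pathway list, the 4 measured genes with the largest log2 ratios in size, plus Ppara, Pparg and Ppargc1a. Marker lists are given by counts, medians or sums. Adipocyte markers below the floor and all endothelial markers on the array are named, since they sit beside Cd36. The members and lists were chosen with earlier results of these data known. Alternatives were 3 scalings (median, quantile, loess with span 0.3), floors at the 20th and 60th percentiles, a pseudocount of 0.735 without a floor, the mean over probe sets, no probe sets with the suffixes s, x or a, and measurement on both arrays. Python 3.11.15, pandas 2.3.3, numpy 2.4.6 and statsmodels 0.14.6 were used.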

Additional observations from a re-analysis of the deposited data

How the results depend on the processing

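The median over the measured oxidation genes stayed between −0.020 and 0.0083 under all 9 alternatives, and 0 members were past 1.5-fold on the higher side in any of them. Acaa1a was −0.72 as the mean of its probe sets, which left 0 members lower at 2-fold. Without probe sets of suffix s, x or a it had no value, so 0 members were lower at 2-fold and 0 at 1.5-fold. Over the alternatives the log2 ratios of 9 of 30 members changed sign, among them Cpt1a (−0.14 as the mean of probe sets), Hadh (−0.27 likewise) and Acaa2 (0.29 without those suffixes). Some of the 9 crossed 0 only narrowly, such as Hadha, which ran from −0.017 to 0.015. The share of all measured genes that change sign was not computed, so this count has no background beside it. Acox3, a bound of 0.10, was 0.43 with the floor at the 20th percentile and 0.41 with the pseudocount. With the mean over probe sets the median was −0.014 for mitochondrial members, −0.35 for other ketone body genes, −0.081 for other peroxisomal oxidation, 0.11 for other uptake and activation and −0.18 for regulators and PPAR targets. Without those suffixes it was −0.49 for members of both organelles (Crat alone), 0.13 for other uptake and activation, −0.19 for regulators and PPAR targets and 0.046 for the citrate cycle. With the higher floor (60th percentile) the regulators had a median of −0.087 and 0 lower at 2-fold, since Pdk4 in transgenic colon is then raised to the floor. The cause of the other moves was not tested. A median counted as moved when it shifted by more than the pooled SD over the square root of the number of genes.

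The counts over all genes depended on the floor. At 2-fold they were 64 higher and 51 lower, 202 and 258 with the floor lowered to the 20th percentile, 29 and 27 at the 60th, 111 and 93 with the pseudocount, and 25 lower among genes above the floor on both arrays. At 1.5-fold they were 341 and 238, 766 and 838 at the 20th percentile and 148 and 95 at the 60th. No paired analysis was possible because each genotype has 1 array, and for the same reason no replicate could be left out.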

Other observations

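Mitochondrial carriers of the Slc25 family, which exchange metabolites across the inner membrane, were taken as a family after the data were seen. The carnitine carrier gene Slc25a20 (log2 ratio 0.19) is also counted among the other genes of mitochondrial oxidation. Of 29 measured, 0 were past 2-fold, against 1.38% of all measured genes in either direction. Past 1.5-fold, 0 were higher and 2 lower, against 4.09% higher and 2.85% lower among all measured genes (6.94% in either direction). The median log2 ratio of the family was 0.0022. The lower genes were Slc25a22, a glutamate carrier, at 69.7 and 45.2 (wild type, then transgenic), and Slc25a38, a glycine carrier needed for haem synthesis, at 52.1 and 34.1. At the other end, Slc25a35 read 45.4 and 62.5 and the iron carrier gene Slc25a28 (mitoferrin 2) 81.0 and 109.7.

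Probe sets of 1 gene also disagreed among genes near this pathway that were named after their values were seen. Hnf4a, a nuclear receptor of the intestinal epithelium, read 901 and 907 by its brightest probe set and 248 and 141 by another, with its remaining 2 at log2 ratios of 0.16 and −0.17. Scp2, the sterol carrier with peroxisomal thiolase activity, read 636 and 705 by its brightest, 571 and 415 by another and 91.2 and 60.6 by a dimmer one. Rxra, the partner of the PPARs, read 66.4 and 66.0, and 38.2 and 22.4 by its other probe set.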
